A study of Mus musculus with 10 samples.

Results

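The genes described here are 8 transcription factor genes, Hnf4g, Foxa1, Foxa3, Onecut2, Gata6, Glis3, St18 and Myt1, which are liver-enriched regulators or act beside the main islet regulators. They were taken by gene symbol from a table of 47340 genes, and all 8 were found. Their levels were compared between islets of 5 floxed control (FL) and 5 βFIT2KO (KO) mice, with 1 RNASeq library per mouse. FL mice carried floxed alleles of the FIT2 gene (Fitm2 fl/fl), and KO mice carried the same alleles together with Cre recombinase driven by the rat insulin promoter, from the transgene Tg(Ins2-cre)25Mgn. The GEO labels give the FL genotype as wild type. All 10 mice were 12 week old males fed a chow diet, and islets were kept overnight in CMRL medium before RNA was taken. Islets of mice with the Cre transgene alone were not analysed here, so the transgene and the loss of Fitm2 cannot be told apart. The deletion was directed to β cells, whereas the RNA came from whole islets.

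FOXA, HNF4 and ONECUT factors belong to the regulatory network that was first described in hepatocytes, and parts of the same network are active in pancreatic endocrine cells. FOXA proteins open chromatin at enhancers, and HNF4 proteins are nuclear receptors that bind regulatory DNA of metabolic genes. GATA6 acts in the formation of the pancreas, GLIS3 activates insulin transcription, and MYT1 and ST18 are related zinc finger factors of endocrine and neuronal cells.

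Values are FPKM, fragments scaled by transcript length and by the mapped fragments of the library, so that levels of different genes can be set side by side per unit length. The value of 1 read in each library, read off genes with few reads, put the depth at about 23600000 to 56700000 fragments in FL (median 36500000) and at 35700000 to 48400000 fragments in KO (median 38900000). Fitm2 itself was at 15.5 to 37.1 FPKM in FL and at 4.30 to 9.13 FPKM in KO, with no overlap. The β cell genes Ins1, Ins2 and Iapp and the α cell gene Gcg were listed at 0 in all 10 libraries, so these defining markers could not be used to check the tissue. The other 5 of 8 listed β cell markers (Nkx6-1, Mafa, Slc2a2, Ucn3 and Slc30a8) were present in every library, with a sum of 1034 to 1307 FPKM in FL and 622 to 846 FPKM in KO.

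The members lie on 7 chromosomes, and RefSeq promoter windows of GRCm38.p6, each running from 250 bases before to 50 bases after a transcription start, were matched by symbol for 4 of the 8, Foxa3, Foxa1, Glis3 and Myt1. Windows are printed for a member that was lower in KO and whose window holds a TATA box match (Foxa3), for its paralog that was near 0 (Foxa1), for a member with no called difference (Glis3) and for the most AT-rich window of a member that was lower (Myt1). Capitals mark matches on either strand to any of 6 short motifs. The letters GGGCGG were taken for a GC box, the promoter element bound by factors of the SP family. The letters TATAAA were taken for a TATA box, which places the start of transcription. The forkhead motif, bound by FOXA proteins among others, was searched as TGTTTAC on both strands. For GATA proteins the search was made with AGATAA on both strands. For HNF4 proteins the search was made with CAAAGT, letters from within their binding sequence, on both strands. The core to which zinc fingers of MYT proteins bind was searched as AAAGTT on both strands.
Foxa3, chr7:19023490-19023789, minus strand: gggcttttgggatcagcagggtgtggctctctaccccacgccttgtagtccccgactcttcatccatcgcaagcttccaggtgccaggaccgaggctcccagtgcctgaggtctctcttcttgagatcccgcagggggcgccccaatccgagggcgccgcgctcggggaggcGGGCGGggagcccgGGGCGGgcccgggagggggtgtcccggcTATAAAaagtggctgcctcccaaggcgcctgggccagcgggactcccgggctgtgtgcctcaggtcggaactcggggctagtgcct
Foxa1, chr12:57546062-57546361, minus strand: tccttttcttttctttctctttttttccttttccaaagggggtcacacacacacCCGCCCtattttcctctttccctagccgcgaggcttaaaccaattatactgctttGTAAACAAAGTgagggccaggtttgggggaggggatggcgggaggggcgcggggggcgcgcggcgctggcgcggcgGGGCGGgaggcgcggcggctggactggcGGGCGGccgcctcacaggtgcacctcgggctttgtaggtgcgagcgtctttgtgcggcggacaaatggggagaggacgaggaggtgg
Glis3, chr19:28680028-28680327, minus strand: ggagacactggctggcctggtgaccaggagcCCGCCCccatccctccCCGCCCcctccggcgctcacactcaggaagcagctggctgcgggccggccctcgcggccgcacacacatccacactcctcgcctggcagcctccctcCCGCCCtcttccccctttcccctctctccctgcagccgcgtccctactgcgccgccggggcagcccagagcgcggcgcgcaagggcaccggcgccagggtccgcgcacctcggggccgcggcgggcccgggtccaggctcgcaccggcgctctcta
Myt1, chr2:181766779-181767078, plus strand: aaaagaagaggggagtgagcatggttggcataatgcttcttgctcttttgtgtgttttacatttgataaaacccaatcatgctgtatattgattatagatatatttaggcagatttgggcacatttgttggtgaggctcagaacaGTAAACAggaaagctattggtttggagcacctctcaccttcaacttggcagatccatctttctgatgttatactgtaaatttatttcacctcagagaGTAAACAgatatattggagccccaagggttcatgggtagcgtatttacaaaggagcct

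The Foxa3 window had a GC content of 69.0%, 22 CpG, 2 GC box matches and 1 TATA box match. The Foxa1 window had a GC content of 62.3%, 26 CpG and 3 GC box matches, and its 1 forkhead match shares bases with its 1 HNF4 match. The Glis3 window was the richest of the 4 in GC (76.3%) and CpG (32), and its 3 matches were all GC boxes. The Myt1 window had a GC content of 39.3%, 1 CpG and 2 forkhead matches. It is the second of 3 Myt1 windows, and the other two held 2 and 1 CpG and no forkhead match. Over all 32851 mouse windows of this length, the median GC content was 52.7% and the median CpG number was 7. The GC box letters were in 35.7% of the windows, the TATA box letters in 13.6%, the forkhead letters in 3.65%, the GATA letters in 11.2%, the HNF4 letters in 14.4% and the MYT core letters in 14.1%. These are matches to letters in a sequence, and binding was not measured.

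In FL islets the members spanned almost 3 orders of magnitude. St18 was highest at 62.4 ± 6.14 FPKM, followed by Myt1 at 27.9 ± 4.21, Glis3 at 23.2 ± 3.35, Foxa3 at 13.2 ± 0.658, Gata6 at 4.88 ± 0.540, Hnf4g at 2.41 ± 0.344, Onecut2 at 0.259 ± 0.0339 and Foxa1 at 0.0785 ± 0.0255 FPKM (SD, n = 5). Myt1 and Glis3 overlapped between FL libraries, while each other neighbouring pair in this order was apart in all 5 FL libraries. The widest step was between Hnf4g and Onecut2, at 9.32 times. In KO islets Glis3 (24.1 ± 3.12 FPKM) came before Myt1 (20.7 ± 2.19 FPKM; SD, n = 5), again with overlap, and Onecut2 and Foxa1 overlapped as well. The FL mean of St18 was above that of 85.9% of the genes tested, and the FL mean of Hnf4g was above that of 14.5%.

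**Figure D1:**
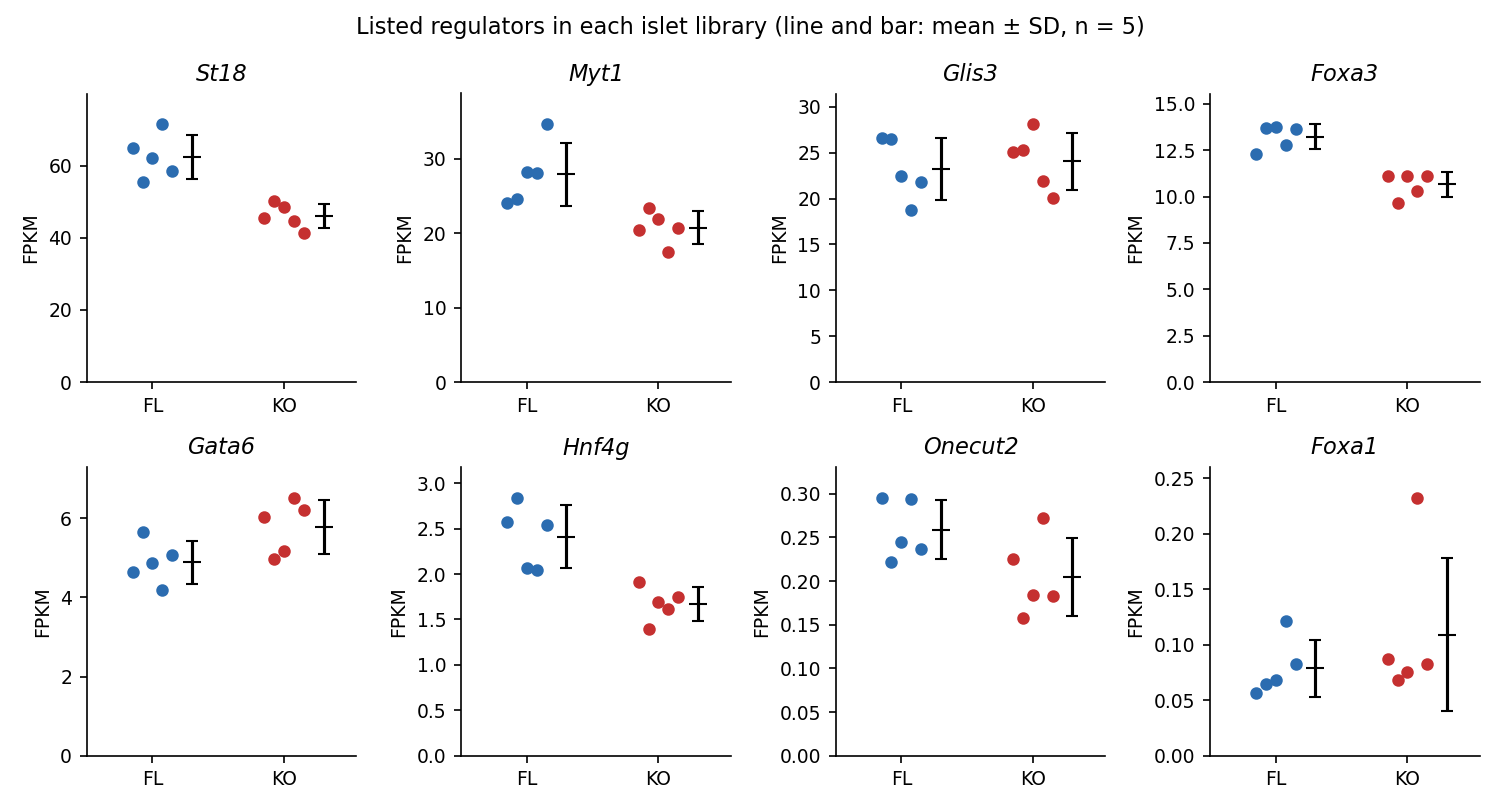
FPKM of the 8 regulators in each islet library of FL (blue) and KO (red) mice, with replicates 1 to 5 from left to right and the mean ± SD (n = 5) beside them. St18, Myt1, Foxa3 and Hnf4g have every KO point below every FL point, and 1 KO point of Foxa1 stands at 0.232 FPKM.

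The comparison of KO with FL islets asked which of these regulators differ in islets after loss of FIT2 in β cells. St18, Myt1, Foxa3 and Hnf4g were lower in KO, and none was called higher. Of these the mean FPKM of Foxa3 fell by 19.5%, that of Hnf4g fell by 30.6%, and those of the other two fell by amounts in between. Gata6 and Glis3 were tested and not called, while Onecut2 and Foxa1 were below the level at which genes were tested, a mean of 1 FPKM in FL or in KO. Differences were tested with limma on log2(FPKM + 1) over 13065 genes, with Benjamini-Hochberg adjustment and a threshold of 0.05 for a call. Of all tested genes, 16.5% were called lower in KO and 9.05% higher. The 6 members tested had a median log2 fold change of −0.32, against −0.06 for all tested genes. Of the 6 members tested, 4 had each KO library below each FL library, which held for 12.5% of all tested genes. They were the 4 members that were called. None of the members tested had each KO library above each FL library, which held for 6.67% of all tested genes. Because the members and lists were chosen with earlier results of these data known, such shares and medians are descriptions and not tests. In whole islets, fewer cells of a type and less RNA per cell cannot be told apart.

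Of the MYT family, St18 and Myt1 were both lower in KO. St18, on chromosome 1 from 6487231 to 6860940 (plus strand, GENCODE M21, GRCm38), encodes a zinc finger repressor that is found in neurons and endocrine cells. Across replicates 1 to 5 it was at 64.8, 55.4, 62.0, 71.4 and 58.6 FPKM in FL and at 45.3, 50.2, 48.4, 44.7 and 41.4 FPKM across KO replicates. The highest KO library lay just over 5 FPKM below the lowest FL library. The mean fell by 26.3%, from 62.4 ± 6.14 to 46.0 ± 3.41 FPKM (SD, n = 5). The log2 fold change was −0.43 (SE 0.07, 95% interval −0.59 to −0.27, adjusted p = 0.00197 from limma), and the exact two-sided permutation test gave p = 0.00794, the smallest that 5 mice against 5 allow.

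Myt1, on chromosome 2 from 181763332 to 181827797 (plus strand), encodes a zinc finger factor that is switched on as endocrine progenitors form. It was at 24.0, 24.6, 28.2, 28.0 and 34.6 FPKM across FL replicates 1 to 5 and at 20.4, 23.3, 21.9, 17.4 and 20.6 FPKM across KO replicates 1 to 5. The groups were apart by a narrow margin, since FL 1 and KO 2 differed by less than 1 FPKM, and the FL libraries were more widely spread (CV 15.1%) than those of KO (CV 10.6%). The mean fell by 25.6%, from 27.9 ± 4.21 to 20.7 ± 2.19 FPKM (SD, n = 5), and the log2 fold change was −0.40 (SE 0.10, 95% interval −0.63 to −0.18, adjusted p = 0.0151 from limma). The exact permutation test gave p = 0.00794. Myt1l, the third gene of the family and a neuronal factor, was also lower, at 4.19 ± 0.332 FPKM in FL against 3.32 ± 0.336 FPKM in KO (SD, n = 5; log2 fold change −0.26, SE 0.07, adjusted p = 0.0201 from limma), although its libraries overlapped.

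The share of each of the 3 MYT genes in the family total overlapped between FL and KO. St18 made up 66.1% ± 3.95 of the total in FL and 65.7% ± 1.75 in KO, Myt1 29.5% ± 3.67 and 29.6% ± 1.84, and Myt1l 4.46% ± 0.567 and 4.75% ± 0.433 (SD, n = 5). The total was 94.5 ± 6.91 FPKM in FL against 70.1 ± 5.21 FPKM in KO (SD, n = 5), with no overlap between libraries.

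Foxa3 was the member with the least spread and the smallest called difference. The gene, on chromosome 7 from 19013284 to 19023538 (minus strand), has 1 annotated transcript of 2037 nt and encodes a forkhead factor of the liver and gut. It was at 12.3, 13.7, 13.8, 12.8 and 13.6 FPKM across FL replicates 1 to 5 and at 11.1, 9.65, 11.1, 10.3 and 11.1 FPKM across KO replicates 1 to 5. These values rest on 533 to 1420 reads per library. No KO library reached the FL range, and the CV was 4.97% in FL and 6.13% in KO. The mean fell by 19.5%, from 13.2 ± 0.658 to 10.7 ± 0.653 FPKM (SD, n = 5), and the log2 fold change was −0.29 (SE 0.05, 95% interval −0.41 to −0.17, adjusted p = 0.00292 from limma; exact permutation p = 0.00794).

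Among the FOXA genes, Foxa2, the main FOXA factor of β cells, was at 54.0 ± 4.0 FPKM in FL against 37.0 ± 1.43 FPKM in KO (SD, n = 5; log2 fold change −0.53, SE 0.06, adjusted p = 6.97e-05 from limma). Foxa3 therefore held a larger share of the FOXA total in KO (21.1% to 23.7%) than in FL (18.6% to 20.1%), with no overlap, while its own level was lower. Whether the changes of Foxa2 and Foxa3 differ was not tested beyond these shares. The FOXA total was 67.3 ± 4.57 FPKM in FL against 47.8 ± 1.85 FPKM in KO (SD, n = 5), again with no overlap.

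Foxa1, on chromosome 12 from 57540628 to 57546916 (minus strand), encodes the forkhead factor that acts with FOXA2 in the early pancreas. It was barely detected, at 0.0568, 0.0641, 0.0683, 0.121 and 0.0825 FPKM in FL 1 to 5 and at 0.0874, 0.0677, 0.0750, 0.232 and 0.0829 FPKM in KO 1 to 5. On its longest transcript of 3191 nt these values come out as 4, 7, 8, 12 and 14 reads in FL and 10, 9, 8, 27 and 12 reads in KO, each within 0.027 of a whole read. The 95% Poisson interval, which covers counting error only, was 0.153 to 0.337 FPKM for KO 4 and 0.0155 to 0.145 FPKM for FL 1. Without a filter on low FPKM, Foxa1 was not called (adjusted p = 0.612 from limma), and the exact permutation test gave p = 0.476. Foxa1 made up 0.117% ± 0.0406 of the FOXA total in FL and 0.229% ± 0.148 in KO (SD, n = 5).

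**Figure D2:**
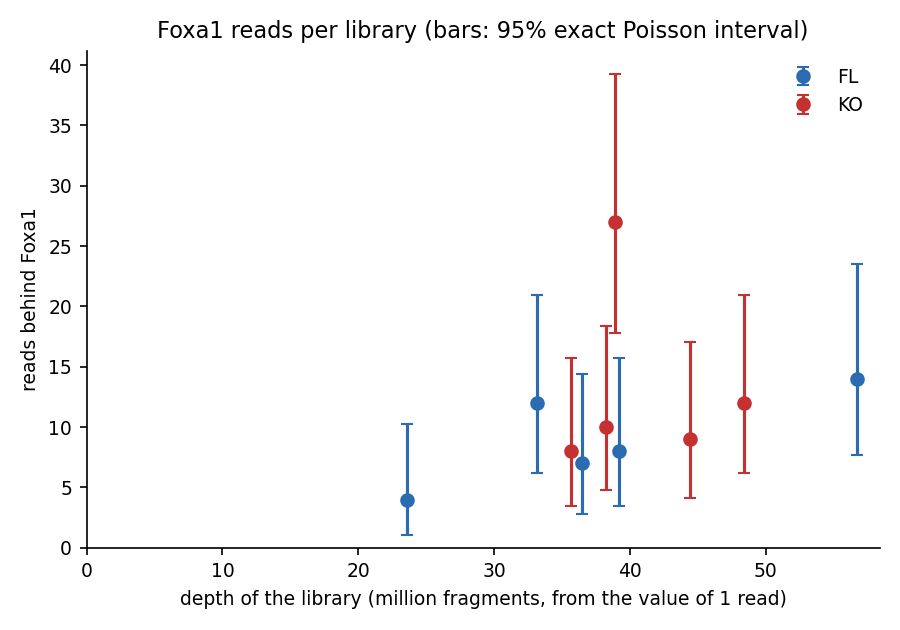
Reads behind Foxa1 (vertical axis, with 95% exact Poisson intervals) against the depth of each library in fragments (horizontal axis) for FL (blue) and KO (red). The library KO 4 has 27 reads, and the other 9 libraries have 4 to 14.

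Hnf4g had the largest relative fall in mean FPKM of the 4 called members. The gene, on chromosome 3 from 3508030 to 3658052 (plus strand), encodes a nuclear receptor related to HNF4A that is known from gut and pancreas. It was at 2.57, 2.84, 2.07, 2.04 and 2.53 FPKM across FL replicates 1 to 5 and at 1.91, 1.40, 1.70, 1.62 and 1.75 FPKM across KO replicates 1 to 5. On the longest transcript these values rest on 129 to 306 reads per library. The groups did not overlap, with KO 1 the closest to the FL range. The mean fell by 30.6%, from 2.41 ± 0.344 to 1.67 ± 0.187 FPKM (SD, n = 5). The log2 fold change was −0.35 (SE 0.09, 95% interval −0.54 to −0.15, adjusted p = 0.0160 from limma; exact permutation p = 0.00794), and with a level this low the added 1 FPKM makes it smaller than the change in FPKM. With the replicate number as a block, the adjusted p was 0.0539 (limma), above the threshold for a call. When FL 1 and KO 5 were both left out, the log2 fold change was −0.34 over the 8 libraries that remained. The adjusted p was then 0.0533 (limma), again above the threshold. This check was chosen after the data were seen because FL 1 was the shallowest library and KO 5 had the highest sum of acinar markers.

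Hnf4a, the HNF4 factor whose mutation causes a form of monogenic diabetes, was at 19.2 ± 2.49 FPKM in FL against 20.1 ± 3.24 FPKM in KO (SD, n = 5; adjusted p = 0.752 from limma). Since Hnf4a was much the more abundant, the HNF4 total was 21.6 ± 2.62 FPKM in FL against 21.7 ± 3.08 FPKM in KO. Hnf4g made up 8.74% to 12.6% of that total in FL and 5.14% to 9.57% in KO, and these ranges overlap.

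**Figure D3:**
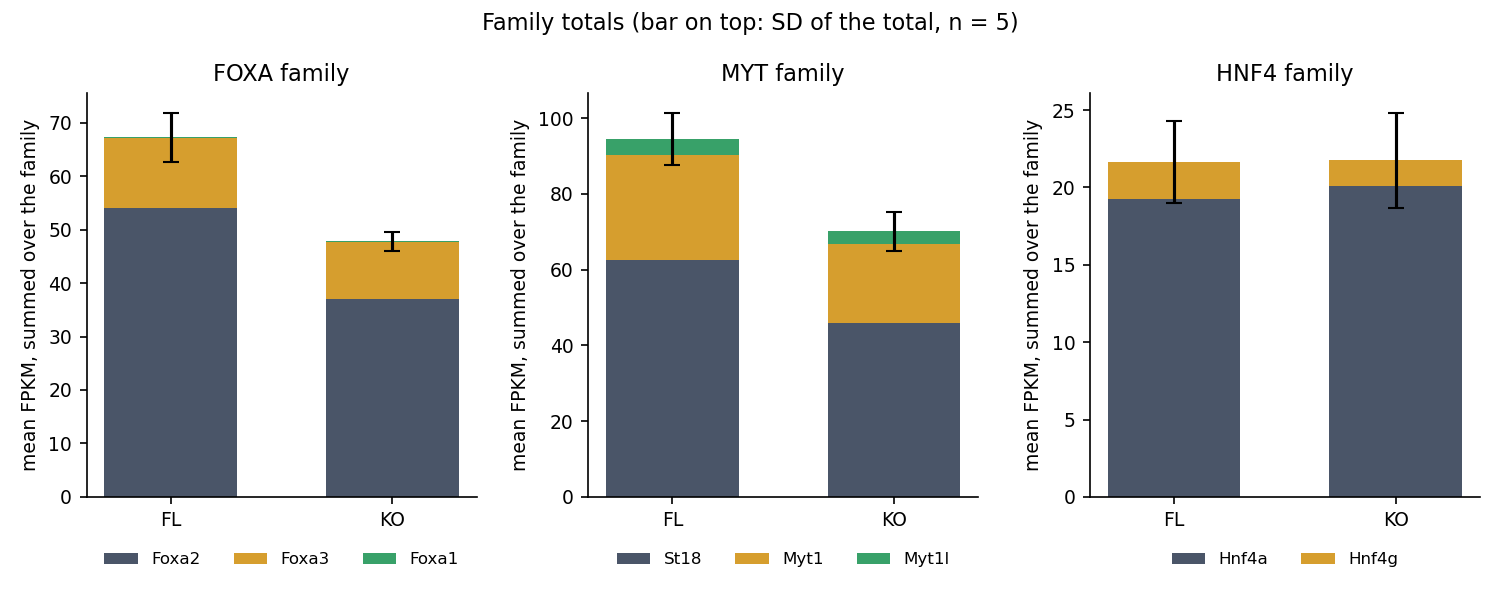
Mean FPKM of the FOXA, MYT and HNF4 genes stacked by gene for FL and KO islets, with the SD of the family total (n = 5) on top. The FOXA total goes from 67.3 to 47.8 FPKM and the MYT total from 94.5 to 70.1 FPKM, while the HNF4 total is 21.6 FPKM in FL and 21.7 FPKM in KO.

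Onecut2, on chromosome 18 from 64340020 to 64400987 (plus strand), encodes a factor of the cut homeodomain class that acts in liver and endocrine development. It was at 0.295, 0.222, 0.245, 0.294 and 0.237 FPKM in FL 1 to 5 and at 0.225, 0.158, 0.184, 0.272 and 0.183 FPKM in KO 1 to 5. Because its annotated transcript is 16234 nt long, these low levels still rest on 106 to 216 reads per library. Of the KO libraries, 3 were below all FL libraries and the other two were within the FL range. The means were 0.259 ± 0.0339 FPKM in FL against 0.205 ± 0.0448 FPKM in KO (SD, n = 5; exact permutation test, two-sided, p = 0.0635). Without a filter on low FPKM it was not called (adjusted p = 0.222 from limma). The other ONECUT genes were lower still, with Onecut1 at 0.0578 ± 0.0345 FPKM in FL against 0.0793 ± 0.0309 FPKM in KO (SD, n = 5).

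Gata6, on chromosome 18 from 11052064 to 11085635 (plus strand), had the highest KO level relative to FL of the 6 members tested and did not pass the threshold. It was at 4.65, 5.65, 4.86, 4.19 and 5.06 FPKM in FL 1 to 5 and at 6.04, 4.96, 5.18, 6.51 and 6.20 FPKM in KO 1 to 5. KO 1, KO 4 and KO 5 were above all FL libraries, and KO 2 and KO 3 lay within the FL range. The means were 4.88 ± 0.540 FPKM in FL against 5.78 ± 0.672 FPKM in KO (SD, n = 5). The log2 fold change was 0.20 (SE 0.09, 95% interval 0.01 to 0.39, unadjusted p = 0.0368 and adjusted p = 0.107 from limma), and the exact permutation test gave p = 0.0556. An antisense transcript, 1010001N08Rik, overlaps its start on the opposite strand and was listed at 0.341 FPKM in FL against 0.391 FPKM in KO.

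Gata6 is also known from exocrine, endothelial and mesenchymal cells. The summed FPKM of 6 endothelial markers was 122 to 141 in FL and 146 to 192 in KO, and that of 7 mesenchymal markers was 16.3 to 24.3 in FL and 30.7 to 38.3 in KO, both without overlap. Of these markers 3 of 6 tested endothelial genes (Cdh5, Pecam1 and Plvap) and 5 of 5 tested mesenchymal genes were called higher, and none was called lower, where 9.05% of all tested genes were called higher and 16.5% lower. The sum of 9 acinar markers, none of which was called (limma), ran from 4249.9 to 11235 FPKM in FL and from 2798 to 20831 FPKM in KO. The 3 KO libraries with the most Gata6 were the 3 with the highest acinar sums, at 5051, 8445 and 20831 FPKM for KO 1, KO 4 and KO 5, and the 3 with the highest mesenchymal sums (33.5 to 38.3 FPKM). The endothelial sums did not follow that order, since KO 2, with the lowest Gata6 of the KO libraries, had 177 FPKM and KO 4, with the highest, had 161 FPKM. In FL, the library with the lowest Gata6 (FL 4) had the lowest acinar sum. The acinar sums of FL 1 and FL 2 were nearly equal (11235 and 11213 FPKM). Of these, FL 2 had the highest Gata6 of the FL libraries (5.65 FPKM) and FL 1 had 4.65 FPKM. FL 5, with 5.06 FPKM of Gata6, had an acinar sum of 5950 FPKM. The part of these cells in the Gata6 values was not tested.

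**Figure D4:**
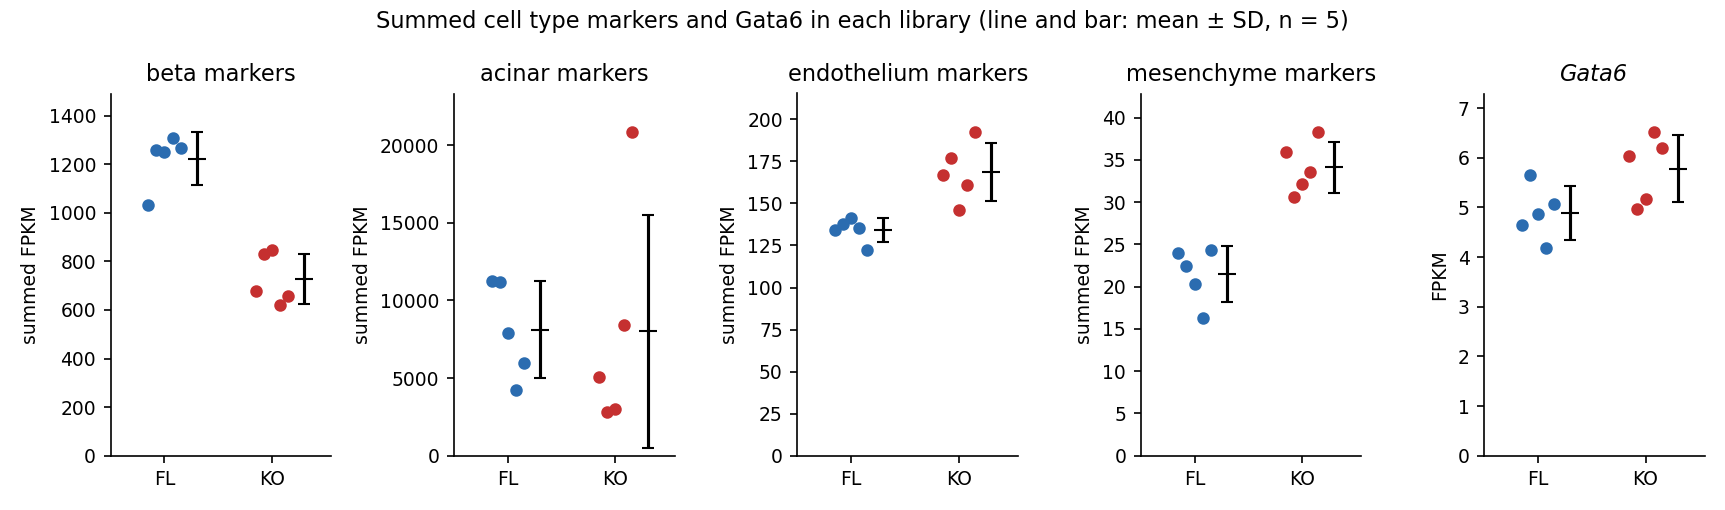
Summed FPKM of β cell, acinar, endothelial and mesenchymal markers and FPKM of Gata6 in each FL (blue) and KO (red) library, with replicates 1 to 5 from left to right and the mean ± SD (n = 5). Endothelial sums (146 to 192 FPKM in KO) and mesenchymal sums (30.7 to 38.3 FPKM in KO) lie above the FL range, β cell sums lie below it, and acinar sums and Gata6 overlap.

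The β cell marker sum moved the other way. It was lower in every KO library than in every FL library, and 5 of 5 tested β cell markers were called lower, as St18, Myt1, Foxa3 and Hnf4g were. Leukocyte markers summed to 24.4 to 29.9 FPKM in FL and 37.9 to 44.5 FPKM in KO, of which Cd68 made up 22.8 ± 2.2 FPKM and 37.1 ± 2.3 FPKM on average (SD, n = 5). Cd68 was the 1 of 3 tested leukocyte markers that was called (higher), and Adgre1 and Csf1r were not called (adjusted p = 0.101 and 0.366 from limma). Of the other endocrine lists, 1 of 4 tested α cell markers (Irx1) and 1 of 3 tested δ cell markers (Sst) were called lower, and none was called higher. With 16.5% of all tested genes called lower, single calls in lists this short are no result about these cells. The part of a change in cell types in the 4 lower members was not tested.

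Of the other GATA genes, Gata2, a factor of blood and endothelial cells, was at 1.60 ± 0.328 FPKM in FL against 2.02 ± 0.508 FPKM in KO, and Gata4, which acts with GATA6 in the pancreas, was at 1.23 ± 0.392 FPKM in FL against 0.902 ± 0.591 FPKM in KO (SD, n = 5; adjusted p = 0.285 and 0.373 from limma). Gata1, Gata3 and Gata5 were under the filter. Gata6 made up 55.6% to 68.6% of the GATA total in FL and 57.4% to 71.8% in KO, which overlap.

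Glis3, on chromosome 19 from 28258851 to 28680077 (minus strand), encodes a zinc finger activator of insulin transcription that is mutated in a form of neonatal diabetes. It was at 26.6, 26.5, 22.5, 18.7 and 21.8 FPKM in FL 1 to 5 and at 25.1, 25.3, 28.1, 21.9 and 20.1 FPKM in KO 1 to 5. The groups overlapped over almost their whole range, with only KO 3 above all FL libraries. The means were 23.2 ± 3.35 FPKM in FL against 24.1 ± 3.12 FPKM in KO (SD, n = 5), and the log2 fold change of 0.05 (SE 0.11, 95% interval −0.19 to 0.29, adjusted p = 0.764 from limma; exact permutation p = 0.675) had an interval on both sides of 0. Glis2 was at 15.3 ± 4.03 FPKM in FL against 13.8 ± 0.885 FPKM in KO (SD, n = 5; adjusted p = 0.659 from limma), with a CV in FL that was well above that in KO. Glis1 was under the filter.

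**Figure D5:**
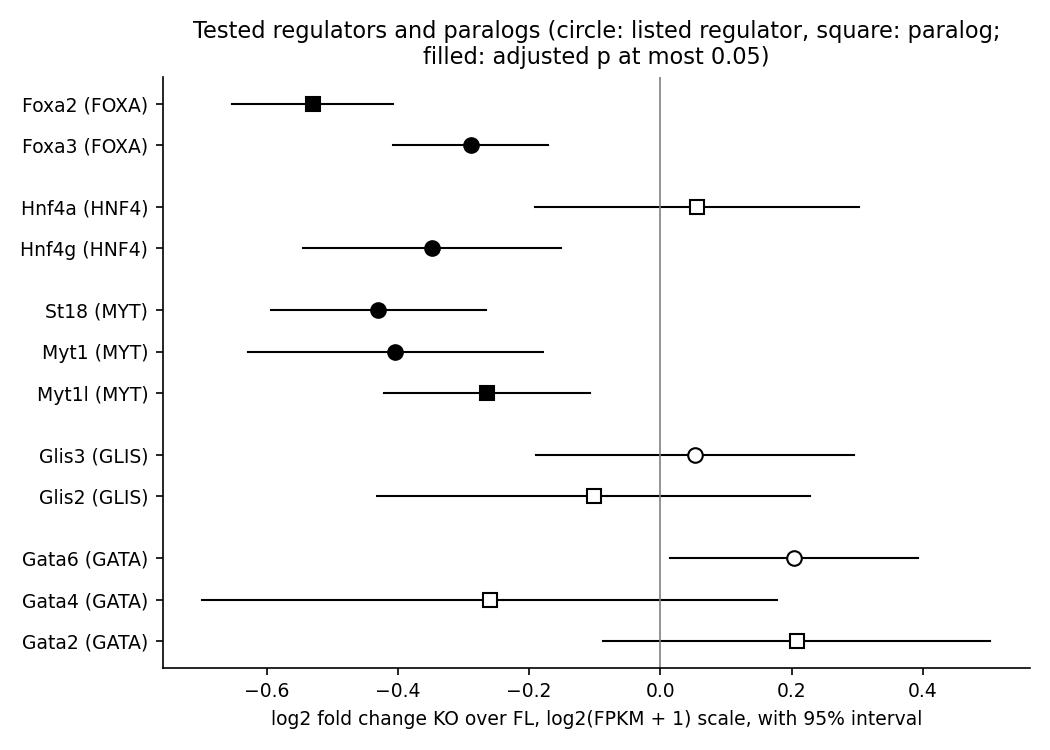
Log2 fold change of KO over FL on the log2(FPKM + 1) scale with its 95% interval for the tested regulators (circles) and their tested paralogs (squares), filled where the adjusted p was at most 0.05. Filled symbols are all to the left of 0, from −0.53 for Foxa2 to −0.26 for Myt1l, and the interval of Gata6 runs from 0.01 to 0.39.

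Of 12 paralogs of the members, 6 were tested and 2 (Foxa2 and Myt1l) were called lower, none higher, where 16.5% of all tested genes were called lower and 9.05% higher. Foxa2 kept its call in 25 of 25 alternative fits and Myt1l in 21 of 24 (adjusted p up to 0.0520 from limma). Of 9 further factors of the liver network, 5 were tested, and 1 was called lower and none higher, a share near that over all tested genes. Prox1, a homeobox factor of liver and endocrine progenitors, fell from 12.8 ± 0.452 to 10.6 ± 0.604 FPKM (SD, n = 5; adjusted p = 0.00337 from limma) with no overlap. Nr1h4, Cebpa, Cebpb and Nr2f2 were tested and not called (adjusted p from 0.0862 to 0.742 from limma).

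Of 13 cofactors of these families, 11 were tested and 2 were called lower, none higher, beside 16.5% called lower over all tested genes. All 11 had a log2 fold change below 0 (median −0.20), as did 61.9% of all tested genes, and Sin3b was at up to 0.02 under the other scalings. Tle3, a Groucho corepressor that works with forkhead factors, fell from 76.3 ± 7.69 to 54.4 ± 5.93 FPKM, and Ncoa1, a coactivator of nuclear receptors, fell from 28.2 ± 1.30 to 22.2 ± 2.35 FPKM (SD, n = 5; adjusted p = 0.00274 and 0.00436 from limma). Sin3a, Sin3b, Hdac1 and Hdac2, corepressor parts recruited by MYT factors, were not called (adjusted p from 0.151 to 0.563 from limma).

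Of 12 known targets of these factors in islets, 11 were tested (Ins2 was listed at 0) and 6 were called lower, none higher, beside 16.5% lower and 9.05% higher over all tested genes. They were the glucose transporter gene Slc2a2, from 245 ± 34.5 to 151 ± 25.0 FPKM, the KATP channel gene Abcc8, from 281 ± 15.0 to 227 ± 16.8 FPKM, Hadh, an enzyme of fatty acid oxidation, from 396 ± 23.7 to 302 ± 25.7 FPKM, the transcription factor genes Pdx1, from 90.6 ± 8.09 to 65.7 ± 10.1 FPKM, and Mafa, from 253 ± 44.4 to 113 ± 39.1 FPKM, and the cyclin gene Ccnd2, from 279 ± 35.2 to 200.8 ± 45.7 FPKM (SD, n = 5; adjusted p from 0.00190 to 0.0300 from limma). The call of Ccnd2 held in 16 of 25 alternative fits (adjusted p up to 0.0686 from limma), while those of the other 5 genes held in all 25. Slc2a2 and Mafa are also among the β cell markers. Pklr, Tmem27 and Anks4b were at adjusted p from 0.438 to 0.848 and had higher means in KO. Kcnj11, the partner of Abcc8 in the channel, was at 79.3 ± 5.77 FPKM in FL against 69.9 ± 4.05 FPKM in KO (SD, n = 5; adjusted p = 0.0545 from limma).

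The genes whose log2(FPKM + 1) followed a member most closely over the 10 libraries were Irf2bp2 (r = 0.989) and Smad1 (r = 0.977) for Foxa3, Mpp3 (r = 0.987) and Hspa14 (r = 0.983) for St18, 4930570G19Rik (r = 0.977) and Setdb1 (r = 0.972) for Myt1, Alyref (r = 0.953) and 4930578M01Rik (r = 0.953) for Hnf4g, Klhl5 (r = 0.946) and Epsti1 (r = 0.946) for Gata6, and 2610044O15Rik8 (r = 0.928) and Wdr20 (r = 0.890) for Glis3. These are Pearson correlations over n = 10 libraries picked as the highest among the tested genes, and the points share the difference between FL and KO and the scaling of each library.

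All 4 calls among the members held when each mouse was left out in turn and under 4 other scalings of the libraries. With the replicate number as a block, Hnf4g lost its call (adjusted p = 0.0539 from limma). None of the 4 changes reached 1.5-fold.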

How the data were processed

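RNASeq was performed on islets of 5 FL and 5 KO mice (polyA, stranded TruSeq libraries, single-end reads of 75 nt). Per the labels and the submitters' processing notes, the authors used STAR 2.5.2a, Cuffnorm 2.2.1 and mm10/GRCm38, and they deposited FPKM per gene and mouse. The annotation and the counting by strand are not given in the sources used here. Of 47340 gene identifiers, 46841 matched GENCODE M21 without their version, which gave coordinates. No 2 libraries held identical values.

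The 13065 genes whose mean reached 1 FPKM in either group entered limma 3.58.1 under R 4.3.3 (lmFit, eBayes with a trend, no covariate) on log2(FPKM + 1), with Benjamini-Hochberg adjustment and a threshold of 0.05. The pseudocount of 1 understates changes of low genes. Members were also compared with exact two-sided permutation tests over 252 assignments. FPKM hold no read numbers. Depth and reads were taken from the spacing of low FPKM of genes with 1 transcript of at least 2500 nt, with fragments assumed to be 200 nt long. The share of those values within 0.05 of a whole read is given with the limits. Tables and figures came from Python 3.11.15 with pandas 2.3.3, numpy 2.4.6, scipy 1.17.1 and matplotlib 3.10.9.

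The members and lists were chosen with earlier results of these data known. Named are all members, listed genes that bear on them (results of some listed genes are not reported here), and for each tested member the 2 genes with the highest correlation. Alternatives were other pseudocounts, filters, scalings, eBayes settings, sample weights, a rank test, thresholds, the replicate number as a block and leaving out each mouse. A lower filter with a smaller pseudocount, and leaving out FL 1 and KO 5 together, were added after the data were seen.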

Additional observations from a re-analysis of the deposited data

Results flagged for a closer look

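Foxa1 in KO islets had 1 library far from the other 4. KO 4 was at 0.232 FPKM, and the gap to the next library took 0.880 of the range of the group. Of 16 groups of 5 libraries checked, 1 stood out in this way, and chance alone gives about 5% of groups. KO 4 had 27 reads of Foxa1. Put on the FPKM scale, which takes the depth of each library into account, its 95% Poisson interval ran from 0.153 to 0.337 FPKM and overlapped those of KO 1 (0.0419 to 0.161 FPKM) and FL 4 (0.0625 to 0.211 FPKM) but not those of the other 7 libraries.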

How the results depend on the processing

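Across the other settings St18, Myt1, Foxa3 and Hnf4g kept a lower level in KO, with log2 fold changes of −0.47 to −0.37, −0.47 to −0.33, −0.33 to −0.23 and −0.52 to −0.30. With each mouse left out in turn the number of members called lower stayed at 4 and the number of all genes called ran from 2545 to 3427. At an adjusted p of at most 0.01 the members called lower were 2 (St18 and Foxa3) and all genes 1666, and with at least 1.5-fold change required they were 0 and 639. With limma's sample weights 1 member, Gata6, was called higher (log2 fold change 0.22, adjusted p = 0.0458), while its adjusted p was 0.0458 to 0.284 over all settings. Glis3, never called, ran from −0.0187 (without FL 4) to 0.112 with each mouse left out and was −0.00338 without KO 3, and the cause was not tested. Hnf4g was not called (limma) with the replicate number as a block (adjusted p = 0.0539) or with FL 1 and KO 5 both left out (log2 fold change −0.34, adjusted p = 0.0533), and it was below the 5 FPKM filter. Its adjusted p ran from 0.00772 to 0.0539.

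No pairing of the mice by replicate number was seen. Same-numbered FL and KO libraries correlated at −0.102 to 0.00305, and 0 of 5 correlated best with its own number. The best correlations with another number were only 0.03 to 0.12, so the check cannot exclude a shared litter or batch. The block took the calls over all genes from 3333 to 2368. Scaling changed the split of calls, from 2150 lower and 1183 higher to 1685 and 1547 (median ratio), 1646 and 1536 (upper quartile), 1708 and 1494 (quantile) or 1536 and 1470 (equal sums). Depth limits Foxa1, with 4 to 27 reads. Onecut2, with 106 to 216 reads, was left out by the filter of 1 FPKM. Of the low values behind the read numbers, 97.5% to 98.8% lay within 0.05 of a whole read.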

Other observations

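Genes of differentiated hepatocytes were mostly near 0 in these islets, although liver-enriched factors were present. Of 14 listed, 5 passed the filter of 1 FPKM, F2 among them only through its KO mean, and Alb was at 0.0999 to 0.514 FPKM over the 10 libraries. Tat, a tyrosine-degrading enzyme of the liver, fell from 28.3 ± 2.12 to 11.7 ± 2.33 FPKM (SD, n = 5; log2 fold change −1.22, adjusted p = 2.77e-05 from limma). Apoa2, an apolipoprotein, rose from 3.29 ± 0.641 to 4.77 ± 0.438 FPKM (SD, n = 5; adjusted p = 0.0115 from limma). F2, the prothrombin gene, was at 0.970 ± 0.313 FPKM in FL against 2.01 ± 0.669 FPKM in KO (SD, n = 5), with overlap between the libraries. Ambp, a plasma protein precursor, was at 22.5 ± 1.24 FPKM in FL against 21.2 ± 2.52 FPKM in KO (SD, n = 5) and was not called (adjusted p = 0.452 from limma). Fgb was at 2.98 ± 1.60 FPKM in FL against 4.78 ± 1.45 FPKM in KO (SD, n = 5), with overlap, and was not called (adjusted p = 0.142 from limma).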
